A study of Mus musculus with 24 samples.

Results

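Extracellular matrix and stromal genes were followed in sorted mouse leukocytes through 7 genes: the glycoprotein fibronectin (Fn1), the small proteoglycans decorin (Dcn) and biglycan (Bgn), the fibrillar collagen chains Col1a1, Col1a2 and Col3a1, and the collagen-binding glycoprotein Sparc. All probe sets annotated to these genes were taken, whatever their values. This gave 12 of the 12422 probe sets tested, and 7 of the 8251 genes they represent. None of the 12 was annotated to a second gene. Fn1, Dcn and Sparc had 1 probe set each, Bgn, Col1a1 and Col1a2 had 2 each, and Col3a1 had 3.

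RNA was measured on 24 oligonucleotide arrays in 10 groups, formed by 5 cell populations on 2 genetic backgrounds. B6g7 is C57Bl/6 carrying the H2g7 haplotype of the major histocompatibility complex, the haplotype that NOD, a strain prone to autoimmune diabetes, also has. Infiltrates and T cells came from mice with the BDC2.5 transgene, a T cell receptor that recognises a pancreatic islet antigen, and the labels call the islet infiltrate aggressive on B6g7 and benign on NOD. Total pancreatic infiltrate (3 B6g7 arrays, at 25, 28 and 24 days of age, and 3 NOD arrays, all at 25 days) was gated as viable CD45+ cells. Pancreatic T cells (2 B6g7 arrays, at 25 and 22 days, and 3 NOD arrays, at 24, 24 and 25 days) were gated as CD4+ cells with a high level of the BDC2.5 clonotype. The same gate gave pancreatic lymph node T cells (2 B6g7 arrays, at 25 and 22 days, and 3 NOD arrays, at 24, 22 and 25 days). NK cells were sorted from spleen as Asialo GM1+ CD45+ cells, with 2 arrays on each background. NK cells of B6g7 were taken at 6 and 3 weeks of age from mice lacking the transgene. Among NOD NK arrays only array 2 is described with BDC2.5. Total spleen leukocytes, gated as viable CD45+ cells, had 2 arrays on each background. The titles of the spleen arrays do not name BDC2.5, unlike those of the infiltrates and T cells. No age is given for NOD NK cells or for either spleen group. Whether arrays of a group stand for separate animals is not stated in the labels. The p-values therefore speak only of the spread between arrays, which may be technical.

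Fibroblasts and related stromal cells make most of the interstitial matrix. Collagen I is assembled from Col1a1 and Col1a2 chains and collagen III from Col3a1 chains. Decorin and biglycan are small leucine-rich proteoglycans that bind collagen fibrils and growth factors, and Sparc is a matricellular protein that binds collagen. Fibronectin is built into matrix by many cell types, is a major plasma protein made by hepatocytes, and is also made by macrophages. Every population here was sorted with a leukocyte marker, so fibroblasts, which lack CD45, are outside the gates.

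Per-array facts bear on all that follows. Array medians ran from 35.1 to 39.1 in linear intensity. In 6 arrays liver transcripts were present, namely B6g7 infiltrates 1 and 2, array 1 of B6g7 and of NOD pancreatic T cells, and array 1 of B6g7 and of NOD lymph node T cells. The mean log2 intensity over 16 liver markers was 11.18 in NOD pancreatic T cell array 1, 9.40 in B6g7 pancreatic T cell array 1 and 8.78 in B6g7 lymph node T cell array 1. It was 7.23 and 6.98 in B6g7 infiltrates 1 and 2, 5.63 in NOD lymph node T cell array 1 and between 4.24 and 5.04 in the other 18 arrays. Fn1 differences of infiltrates over spleen and over pancreatic T cells, and some results of gene lists, are given with and without them. Other results include these arrays unless stated. Leukocyte markers (5 genes) averaged 8.50 to 10.19 in every array, and NK markers set NK cells apart from lymph node T cells, for example Klra3 by 4.98 log2 units (adjusted p = 3.24e-10). The B cell gene Blk was also 3.78 higher in NK cells (adjusted p = 1.87e-09).

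Over the 24 arrays, 1 of the 7 genes, Fn1, stood higher in the pancreatic infiltrates than in most arrays of the other populations. Dcn was high in 3 T cell arrays, Bgn and Sparc were highest in 1 T cell array, and the collagen chains differed little between populations. The standard deviation (SD) of log2 intensity over the 24 arrays was 1.15 for Fn1, above that of 97.3% of all probe sets tested, and 0.99 for Dcn, above that of 95.9%. At the other end stood Col3a1 161984_f_at, with an SD of 0.11, above that of 1.51% of probe sets. The SD of 5 of the 12 probe sets exceeded the median SD of all probe sets, 0.30. In limma's F test over the 10 groups, 0 of the 12 passed, against 21.3% of all probe sets tested. The smallest adjusted p among the 12 was that of Fn1, at 0.138.

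**Figure D1:**
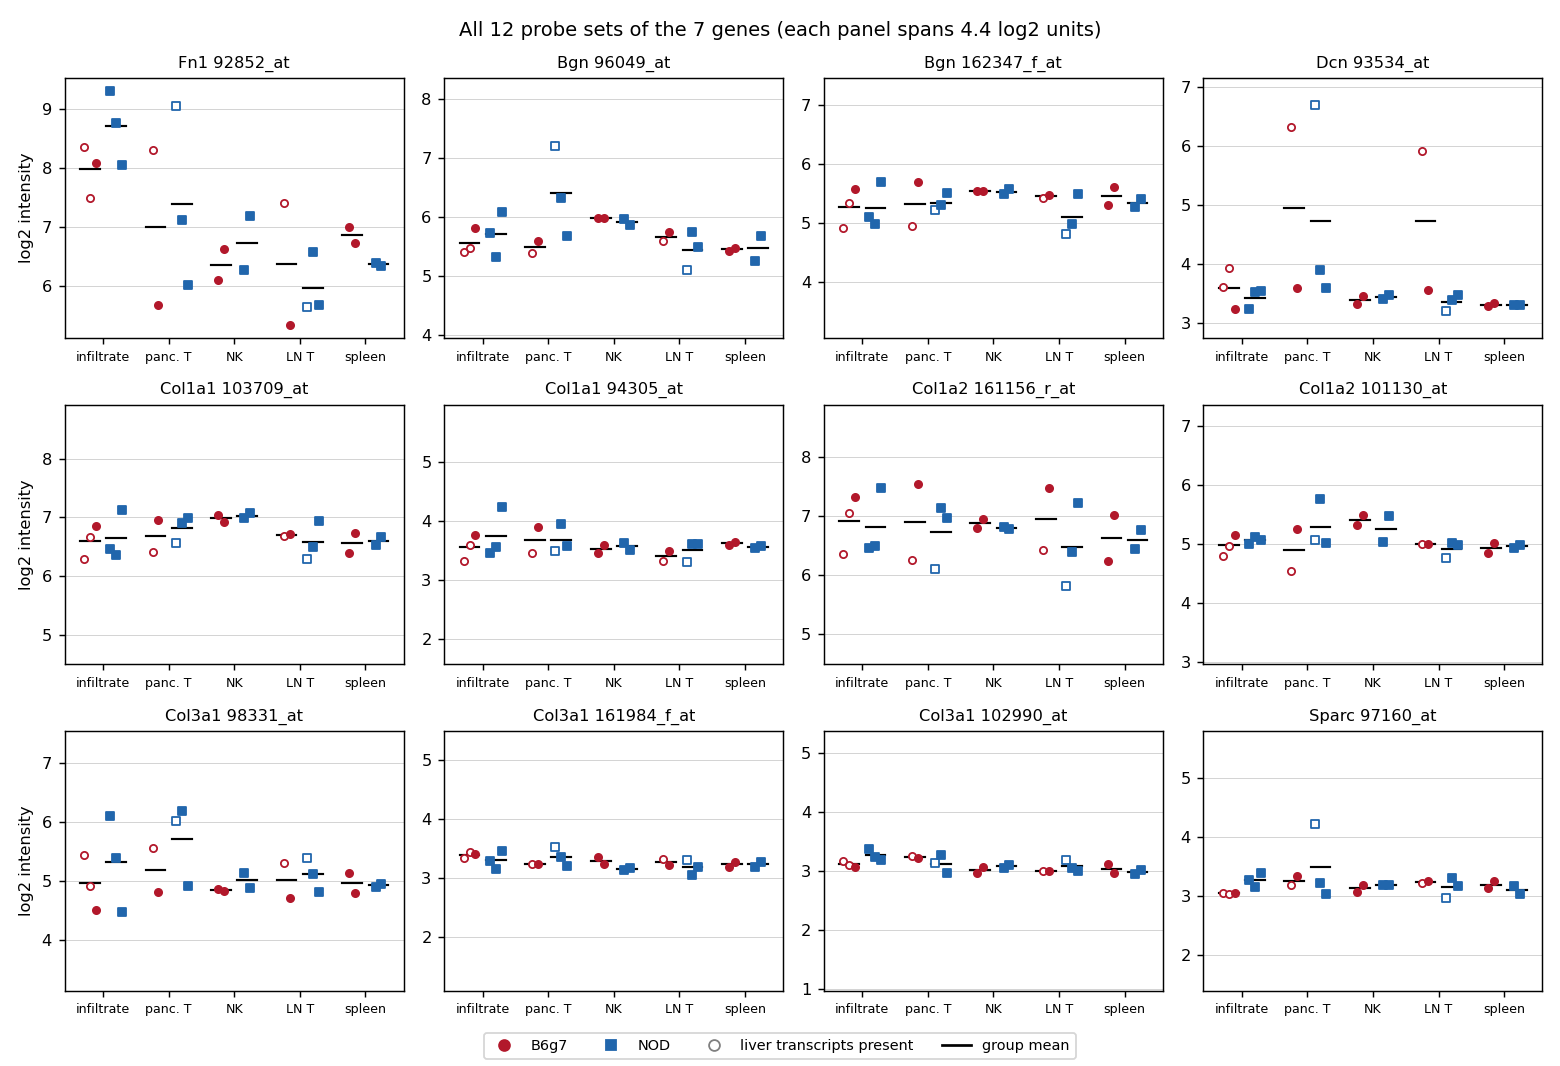
Log2 intensity of the 12 probe sets in each array (vertical axis; every panel spans 4.4 log2 units) by population (horizontal axis; panc. T, pancreatic T cells; LN T, pancreatic lymph node T cells), with B6g7 as red circles left of NOD as blue squares. Open symbols are the 6 arrays with liver transcripts and bars are group means; Fn1 is highest in the infiltrates and in 1 array of each pancreatic T cell group, while Dcn stands apart in 3 T cell arrays.

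Each of 13 comparisons was tested with limma on log2 intensities, with Benjamini-Hochberg adjustment over all 12422 probe sets and a threshold of 0.05. The fit called 0 of the 12 probe sets in every one of the 13. Between backgrounds, B6g7 over NOD, the share of all probe sets called was 0.274% in infiltrates, 0.145% in pancreatic T cells, 0.129% in lymph node T cells, 0.0725% in spleen and 0.0483% in NK cells. For infiltrate over pancreatic T cells it was 2.71% in B6g7 and 3.23% in NOD, and for the interaction of that contrast with background 0.0161%. For pancreatic over lymph node T cells it was 0.00% in B6g7 and 0.0161% in NOD. For infiltrate over spleen it was 7.58% in B6g7 and 9.12% in NOD, and for NK cells over lymph node T cells 15.2%. At an unadjusted p under 0.05, the count was 2 of 12 in NOD infiltrate over spleen, against 22.3% of all probe sets. It was 1 of 12 in 4 comparisons. The shares of all probe sets there were 14.4% in NOD infiltrate over pancreatic T cells and 18.2% in NOD pancreatic over lymph node T cells. They were 6.44% in pancreatic T cells, B6g7 over NOD, and 27.7% in NK cells over lymph node T cells. In the other 8 the count was 0 of 12, against shares of 0.652% to 20.0%. The median log2 difference of the 12 ran from -0.14 to 0.18 in 12 of the 13, against -0.03 to 0.06 for all probe sets. In NOD pancreatic over lymph node T cells it was 0.30, against 0.07 for all probe sets, and 12 of 12 lay above 0. The share of all probe sets above 0 was not counted, and the 12 belong to 7 genes. Between arrays 1 of these groups, Fn1, Dcn and Sparc, for example, differed by 3.41, 3.50 and 1.25. Between arrays 3 they differed by 0.35, 0.12 and -0.14. The pancreatic array 1 had the highest liver marker mean.

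Fn1, measured by 92852_at, had log2 intensities of 8.35, 7.49 and 8.07 in B6g7 infiltrates and 9.30, 8.76 and 8.04 in NOD infiltrates. Pancreatic T cells gave 8.31 and 5.66 in B6g7 and 9.05, 7.10 and 6.01 in NOD. In both T cell groups the first array, which carried liver transcripts, lay within the range of the infiltrates and the others below it. NK cells gave 6.09 and 6.62 in B6g7 and 6.26 and 7.19 in NOD. Lymph node T cells gave 7.41 and 5.33 in B6g7 and 5.64, 6.57 and 5.67 in NOD. Spleen gave 6.996 and 6.72 in B6g7 and 6.38 and 6.33 in NOD. The 6 infiltrates, among them B6g7 arrays 1 and 2 with liver transcripts, lay between 7.49 and 9.30, with a median of 8.21. Arrays with liver transcripts were left out of the other populations only. The 14 arrays of other populations without liver transcripts lay between 5.33 and 7.19, with a median of 6.36, so these sets did not overlap. Fn1 was the 1 of the 12 probe sets with this pattern, which 0.708% of all probe sets showed. With the 4 other arrays that carried liver transcripts included, which ran from 5.64 to 9.05, none of the 12 kept the infiltrates above all 18 others, against 0.443% of all probe sets.

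Ordered by group mean, Fn1 ran from NOD infiltrates at 8.70 ± 0.63 (SD, n = 3) and B6g7 infiltrates at 7.97 ± 0.44 (n = 3), through NOD pancreatic T cells at 7.39 ± 1.54 (n = 3) and B6g7 pancreatic T cells at 6.98 ± 1.87 (n = 2). Below these came B6g7 spleen at 6.86 ± 0.19, NOD NK cells at 6.72 ± 0.66, B6g7 lymph node T cells at 6.37 ± 1.47, NOD spleen at 6.36 ± 0.04 and B6g7 NK cells at 6.36 ± 0.38 (n = 2 each). NOD lymph node T cells were lowest, at 5.96 ± 0.53 (n = 3). The arrays of each group overlapped those of the next group in this order.

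**Figure D2:**
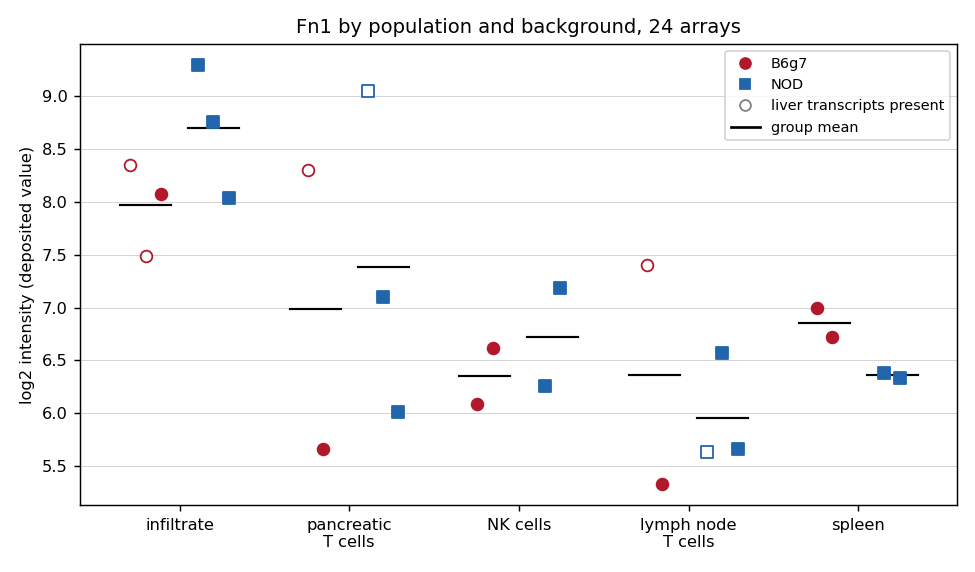
Fn1 log2 intensity (vertical axis) of each array by population (horizontal axis), with B6g7 as red circles left of NOD as blue squares. Open symbols are arrays with liver transcripts and bars are group means. The 6 infiltrates, open and filled, lie between 7.49 and 9.30, above all 14 filled symbols of the other populations, which reach 7.19. The 4 open symbols of the other populations run from 5.64 to 9.05.

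Fn1 in NOD infiltrates was 2.34 log2 units above NOD spleen (5.06-fold, SE 0.80), with 3 of 3 infiltrates above both spleen arrays and an adjusted p of 0.0791 in limma. The 19 arrays in neither group add to the shared estimate of spread. Leaving them out 1 at a time gave adjusted p-values of 0.0344 to 0.0982 for the same difference. The lowest was that without NOD pancreatic T cell array 1. Without all 6 arrays with liver transcripts the adjusted p was 0.00623, and without the 3 of them with the highest Fabp1, a liver transcript, 0.00231. The corresponding difference in B6g7 was 1.11 (SE 0.80, adjusted p = 0.500), with 3 of 3 infiltrates above both spleen arrays. Without the 6 arrays it was 1.22 in B6g7, from 1 infiltrate. Such separation from spleen was not particular to Fn1. All NOD infiltrates also lay above both spleen arrays for Col1a2 101130_at and Col3a1 102990_at. All B6g7 infiltrates lay above for Col3a1 161984_f_at and below for Sparc. The share of all probe sets separated in this way was not counted. Spleen RNA had 1 round of amplification and all other populations had 2. The log2 level of the 3′ Gapdh control minus that of the 5′ control was 2.56 to 3.65 in the infiltrates, against 0.21 to 0.37 in spleen. Amplification and population cannot be told apart in these comparisons. Nor can the BDC2.5 transgene, which titles name for infiltrates and not for spleen. In bulk RNA of a population, more cells that contain a transcript and more of it per cell also cannot be told apart.

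For infiltrate over pancreatic T cells, Fn1 differed by 0.98 log2 units in B6g7 (SE 0.80, adjusted p = 0.690) and by 1.31 in NOD (SE 0.71, adjusted p = 0.432). Leaving out 1 T cell array moved the B6g7 value to 2.31 (without array 1) or -0.34 (without array 2), and the NOD value to 2.14 (without array 1) or 0.62 (without array 3). Without the 6 arrays with liver transcripts, the difference was 2.41 in B6g7 (adjusted p = 0.250), from 1 infiltrate and 1 T cell array, and 2.14 in NOD (adjusted p = 0.0254). Without the 3 arrays highest in Fabp1 it was 2.31 in B6g7 (adjusted p = 0.0535) and 2.14 in NOD (adjusted p = 0.0109). These comparisons and those with spleen share the infiltrate arrays. The difference between the backgrounds in this contrast, B6g7 minus NOD, was -0.32 (SE 1.07, adjusted p = 1.0).

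Between backgrounds, Fn1 in B6g7 infiltrates was 0.73 log2 units below NOD infiltrates on average, a difference of -0.73 (SE 0.71, adjusted p = 0.999), and the arrays overlapped. RMA is named as the processing for all B6g7 infiltrates and for no NOD infiltrate, and processing and background cannot be told apart here. For the other populations the arrays with RMA named are not listed here. The same limit may therefore hold for their B6g7 and NOD arrays. The sample descriptions carry serial codes, and arrays with adjacent codes were taken as a run. Within run d, B6g7 minus NOD was -0.68, and within run f it was 0.04. B6g7 minus NOD was -0.40 in pancreatic T cells, 0.41 in lymph node T cells, 0.50 in spleen and -0.37 in NK cells, with adjusted p-values of 0.967 to 1.0. For pancreatic over lymph node T cells Fn1 differed by 0.62 in B6g7 (SE 0.87, adjusted p = 1.0) and by 1.43 in NOD (SE 0.71, adjusted p = 0.296). The NOD value was 3.41 within run a, which holds the array with the highest liver marker mean, and 0.35 within run h. NK cells over lymph node T cells gave 0.38 (adjusted p = 0.751).

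Macrophage marker means were also higher in infiltrates than in T cells and spleen. Their mean over 17 genes was 7.37, 6.88 and 6.84 in B6g7 infiltrates and 7.90, 7.10 and 6.70 in NOD infiltrates, against 5.25 to 6.35 in the 10 T cell arrays and 6.04 to 6.48 in spleen. NK cells lay between 6.47 and 7.28. In NOD infiltrates over pancreatic T cells, 6 of the 17 passed and rose, against 3.22% of all genes. These included lysozyme (Lyz2), at 4.68 (adjusted p = 0.00439), Cd14, the lipopolysaccharide co-receptor, at 2.53 (adjusted p = 0.000466), and Csf1r, the receptor of macrophage colony-stimulating factor, at 2.41 (adjusted p = 0.00130). In NOD the Csf1r call was lost with only the compared groups fitted (adjusted p = 0.157), and the Lyz2 call with array weights (adjusted p = 0.139). In B6g7 6 of 17 also rose, against 2.59% of all genes, among them Csf1r (adjusted p = 0.00288). Without the arrays with liver transcripts 7 of 17 rose in NOD and 0 of 17 in B6g7, where 1 infiltrate and 1 T cell array were left. Over all 12422 probe sets 338 were called in NOD and 84 in B6g7 under this setting, against 401 and 337 with all arrays. The part of macrophages, or of liver RNA, in the Fn1 level was not tested. Over the 24 arrays, the genes whose log2 values ran most like those of Fn1 were Tmem176a (Pearson r = 0.90), Ninj1 (0.88) and Tmem176b (0.88). These 24 points share the groups, the runs and the liver transcripts of the arrays.

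Dcn, measured by 93534_at, lay between 3.19 and 3.93 in 21 arrays. It reached 6.31 in B6g7 pancreatic T cell array 1, 6.69 in NOD pancreatic T cell array 1 and 5.91 in B6g7 lymph node T cell array 1. Those were the 3 arrays with the highest Fabp1. Of all probe sets, 2.10% had these 3 arrays above the other 21, and Dcn was the 1 among the 12. The other 3 arrays with liver transcripts did not share the high Dcn level. B6g7 infiltrates 1 and 2, with Alb (albumin) at 10.58 and 10.46, read 3.61 and 3.93 for Dcn, and NOD lymph node T cell array 1, with Alb at 8.40, read 3.19. Besides the 3 high arrays, pancreatic T cells read 3.59 in B6g7 and 3.89 and 3.59 in NOD, against 3.23 to 3.93 in the 6 infiltrates.

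Dcn in infiltrates minus pancreatic T cells was -1.36 in B6g7 (SE 0.79, adjusted p = 0.530) and -1.30 in NOD (SE 0.71, adjusted p = 0.434). Dcn in pancreatic minus lymph node T cells was 1.37 in NOD (SE 0.71, adjusted p = 0.314), with 3.50 within run a and 0.12 within run h. In lymph node T cells, B6g7 minus NOD was 1.38 (SE 0.79, adjusted p = 0.798). The 3 genes most like Dcn over the 24 arrays were Rarres2 (r = 0.98), which encodes chemerin, Apoc1 (r = 0.97), an apolipoprotein, and C8g (r = 0.97), a chain of complement component 8. These 3 products are made in liver.

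Bgn 96049_at gave 5.40, 5.46 and 5.80 in B6g7 infiltrates and 5.73, 5.32 and 6.07 in NOD infiltrates. Pancreatic T cells gave 5.39 and 5.59 in B6g7 and 7.20, 6.31 and 5.67 in NOD. Lymph node T cells gave 5.59 and 5.73 in B6g7 and 5.09, 5.74 and 5.49 in NOD. Among these, NOD pancreatic T cell arrays 1 and 2 were the highest, as they were of all 24, and array 3 lay inside the range of the other groups. Spleen gave 5.42 and 5.48 in B6g7 and 5.25 and 5.68 in NOD. Bgn in NOD pancreatic minus lymph node T cells was 0.95 (SE 0.28, unadjusted p = 0.00370, adjusted p = 0.119 in limma). This was 2.10 within run a and 0.18 within run h. B6g7 minus NOD in pancreatic T cells was -0.91 (SE 0.32, adjusted p = 0.485). NOD infiltrate minus pancreatic T cells was -0.69 (SE 0.28, adjusted p = 0.260). Without NOD pancreatic T cell array 3, these differences became 1.31 (adjusted p = 0.00356), -1.27 (adjusted p = 0.0424) and -1.05 (adjusted p = 0.0210), so each call turned on the array with the lowest level in its group.

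The other Bgn probe set, 162347_f_at, lay between 4.81 and 5.70 over all arrays and did not show this pattern, with 5.23, 5.30 and 5.51 in NOD pancreatic T cells. In NK cells Bgn 96049_at gave 5.98 and 5.98 in B6g7 and 5.96 and 5.86 in NOD, with SDs of 0.00 and 0.08 (n = 2 each). The 3 genes most like Bgn 96049_at were Cyp17a1 (r = 0.90), a steroid hydroxylase, Yap1 (r = 0.86), the Hippo pathway coactivator, and Cxcl12 (r = 0.86), a chemokine made by stromal cells. Cxcl12 read 6.21 in NOD pancreatic T cell array 1 and 4.16 to 5.05 in the other 23 arrays.

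Sparc, measured by 97160_at, read 4.22 in NOD pancreatic T cell array 1 and between 2.96 and 3.40 in the other 23 arrays. In linear intensity these are 18.6 and 7.81 to 10.5, below the array medians of 35.1 to 39.1. Group means in pancreatic T cells were 3.26 ± 0.10 in B6g7 (SD, n = 2) and 3.49 ± 0.64 in NOD (SD, n = 3). In all 13 comparisons Sparc differed by -0.23 to 0.34 log2 units, with adjusted p-values of 0.391 or above. Detection calls were not used, so whether Sparc, or Dcn outside its high arrays, was above background cannot be said. The genes most like Sparc were Hpn (r = 0.93), Pafah2 (0.91) and Sult1d1 (0.90). The correlation of Sparc with Bgn 96049_at was 0.78 over the 24 arrays and 0.39 without NOD pancreatic T cell array 1. That of Sparc with Dcn was 0.60 over 24 arrays and 0.11 without that array.

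**Figure D3:**
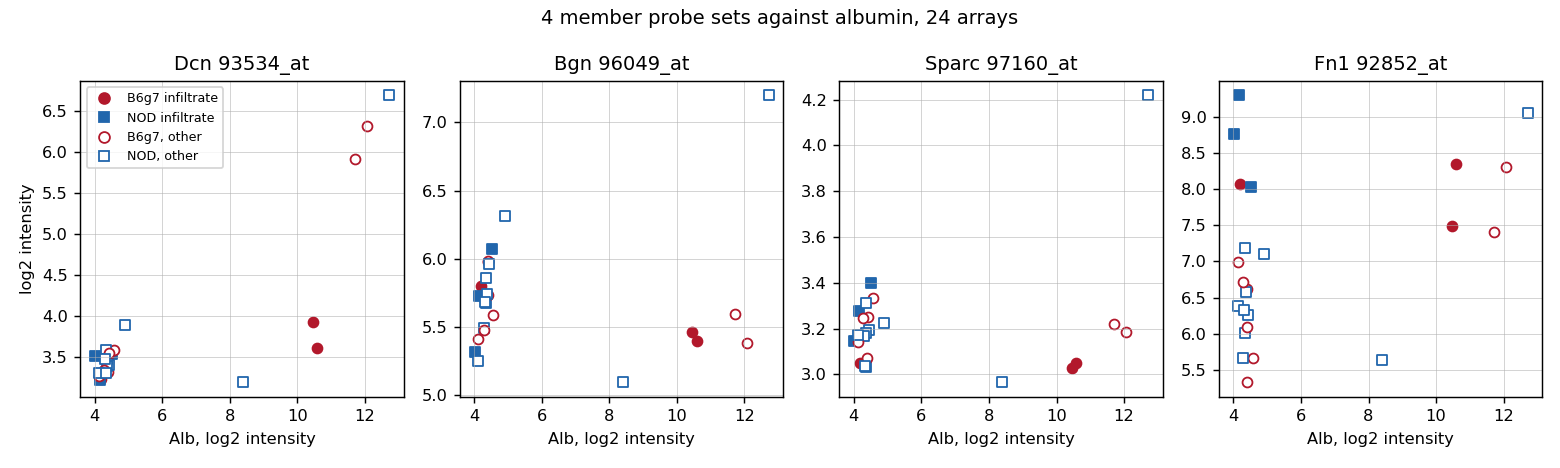
Log2 intensity of Dcn, Bgn (96049_at), Sparc and Fn1 (vertical axes) against log2 intensity of Alb, the albumin transcript (horizontal axis), 1 point per array. Filled symbols are infiltrates and open symbols are other populations. Dcn is high in the 3 arrays with the most albumin transcript, where Fn1 reads 7.41 to 9.05. In the infiltrates, with Alb from 4.01 to 10.58, Fn1 reads 7.49 to 9.30. The part of liver RNA in these levels was not tested.

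The array with the highest liver marker mean, NOD pancreatic T cell array 1, also had high levels of some other genes of matrix and vessels. Vtn (vitronectin, a plasma and matrix glycoprotein) read 9.96 there and 4.26 to 7.55 in the other 23 arrays. Serping1, the C1 inhibitor, read 10.46, against 5.03 to 7.68. Col18a1, a basement membrane collagen made in liver, read 8.45, against 6.08 to 6.78. Cdh5, the endothelial cadherin, read 5.05, against 3.36 to 4.01. These 4 genes and Cxcl12 were picked out after their values were seen, and the lists as a whole did not all stand out there. The mean over 31 other matrix proteins was 4.59 in this array and up to 4.69 in the others, that over 23 other collagens 5.03 against up to 5.28, and that over 13 endothelial markers 5.24 against up to 5.28. Which cells gave the Dcn, Bgn and Sparc signal of this array was not tested.

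The collagen chains differed little between populations. Col1a1 103709_at had group means of 6.60 ± 0.29 in B6g7 infiltrates and 6.65 ± 0.42 in NOD infiltrates (SD, n = 3 each), against 6.57 ± 0.24 in B6g7 spleen and 6.60 ± 0.11 in NOD spleen (n = 2 each). Over all arrays it ran from 6.29 to 7.13. The second Col1a1 probe set, 94305_at, ran from 3.30 to 4.23. Col1a2 161156_r_at averaged 6.90 ± 0.50 in B6g7 infiltrates and 6.80 ± 0.57 in NOD infiltrates (n = 3 each), and 6.90 ± 0.91 in B6g7 pancreatic T cells (n = 2) and 6.73 ± 0.55 in NOD pancreatic T cells (n = 3). The second Col1a2 probe set, 101130_at, ran from 4.54 to 5.76.

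Col3a1 98331_at ran from 4.48 to 6.20, while 161984_f_at and 102990_at ran from 3.04 to 3.53 and from 2.96 to 3.38. The collagen probe set with the smallest unadjusted p between infiltrates and another population was Col3a1 102990_at in NOD infiltrate over spleen. It read 3.38, 3.23 and 3.19 in NOD infiltrates and 2.96 and 3.03 in NOD spleen, a difference of 0.28 (SE 0.12, adjusted p = 0.160). For NK cells over lymph node T cells, Col1a2 101130_at differed by 0.37 (SE 0.16, adjusted p = 0.149) and Col1a1 103709_at by 0.37 (SE 0.18, adjusted p = 0.199). Among the 7 collagen probe sets the 13 comparisons gave differences from -0.53 to 0.60, both bounds from Col3a1 98331_at, with adjusted p-values of 0.149 or above. Detection calls were not used, so it cannot be said which collagen probe sets were above background.

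Serial run and group were compared as sources of spread over the 20 arrays that share a run with another array. More of the variance lay between runs than between groups in 9 of the 12 probe sets, against 67.6% of all probe sets, so this is not particular to the members. Fn1 was among the 9, with 73.9% between runs and 61.3% between groups, as was Dcn, with 71.2% and 47.9%. The exceptions were Bgn 96049_at, Col3a1 102990_at and Sparc. For Col1a2 161156_r_at, 90.1% of the variance lay between the 8 runs and 9.2% between groups. For all probe sets the median share was 72.8% between runs and 58.9% between groups. The log2 level of Col1a2 161156_r_at was 5.81 to 6.10 in run a and 7.48 to 7.54 in run g, and both runs hold T cells of pancreas and lymph node. Infiltrates of both backgrounds read 6.35 to 6.49 in run d and 7.31 to 7.46 in run f. Pancreatic and lymph node T cells read 6.25 to 6.41 in run b and 6.96 to 7.22 in run h. For Col1a1 103709_at the share between runs was 84.2%, for Col3a1 98331_at 82.3% and for Bgn 162347_f_at 77.1%, and the shares between groups were 30.6%, 17.3% and 19.4%. Sparc had 28.4% between runs and 38.8% between groups. Of the 8 runs, 4 hold T cells of both sites and the others hold 1 population each. The sources used here do not say what the serial codes stand for.

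**Figure D4:**
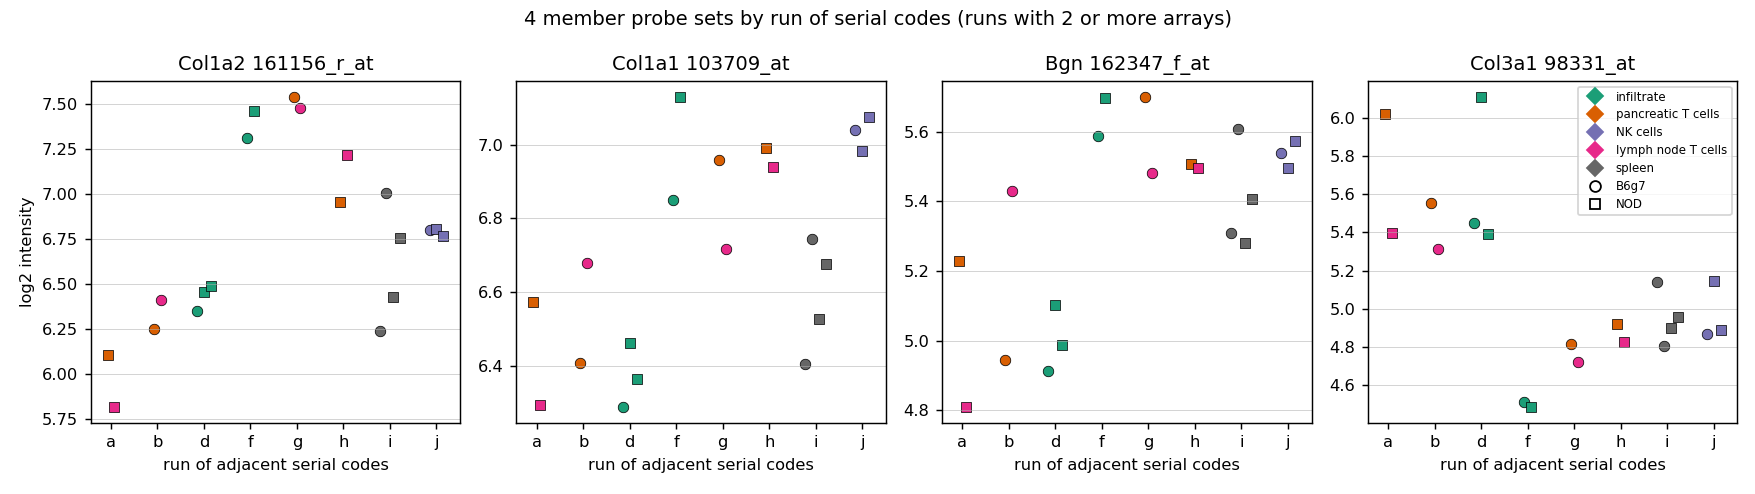
Log2 intensity of Col1a2 161156_r_at, Col1a1 103709_at, Bgn 162347_f_at and Col3a1 98331_at (vertical axes) in the 20 arrays that share a serial run, by run letter (horizontal axis). Colours are populations, circles are B6g7 and squares are NOD. Runs a, b, g and h hold pancreatic and lymph node T cells, and Col1a2 lies at 5.81 to 6.10 in run a and at 7.48 to 7.54 in run g; arrays lie further apart in some runs, such as Col1a2 in run i, at 6.24 to 7.01.

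Bgn 162347_f_at, Col1a1 103709_at and Col1a2 161156_r_at varied together over the arrays. Pearson r over 24 arrays, which share these runs, was 0.88 for Bgn with Col1a1, 0.79 for Bgn with Col1a2 and 0.76 for Col1a1 with Col1a2. Col3a1 98331_at ran the other way, with r = -0.64 against Bgn 162347_f_at. The genes most like Col1a1 103709_at were Krtap6-2 (0.94), Mettl7a1 (0.92) and Tfcp2l1 (0.92). Those most like Col1a2 161156_r_at were Orm3 (0.92), 2210016L21Rik (0.91) and Aard (0.91). Those most like Col3a1 98331_at were Agr2 (0.91), Sec14l2 (0.90) and Slc23a3 (0.90). None of these 9 genes encodes a collagen.

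Whether members varied together depended on the probe set: Bgn 162347_f_at ran with Col1a2 161156_r_at, while Bgn 96049_at gave r = 0.14 with that Col1a2 probe set and 0.78 with Sparc. Promoters are shown so that the letters near the start of these genes can be set side by side. RefSeq promoters of 300 bases (build GRCm38.p6, from 250 bases before the start to 50 after it, 5′ to 3′ on the gene's strand) were matched for 4 of the 7 members, Bgn, Col1a2, Col3a1 and Sparc, and capitals mark matches to any of 3 motifs on either strand. The motifs were the TATA box, searched as TATAAA, the CAAT box, searched as CCAAT, and the GC box, searched as GGGCGG.
Bgn, chrX:73483351-73483650, plus strand: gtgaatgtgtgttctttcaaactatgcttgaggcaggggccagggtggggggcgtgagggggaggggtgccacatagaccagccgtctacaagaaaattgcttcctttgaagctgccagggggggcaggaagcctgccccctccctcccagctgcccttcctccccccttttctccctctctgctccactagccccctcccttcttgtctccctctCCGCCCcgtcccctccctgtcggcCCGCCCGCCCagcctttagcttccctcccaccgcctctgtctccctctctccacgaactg
Col1a2, chr6:4505368-4505667, plus strand: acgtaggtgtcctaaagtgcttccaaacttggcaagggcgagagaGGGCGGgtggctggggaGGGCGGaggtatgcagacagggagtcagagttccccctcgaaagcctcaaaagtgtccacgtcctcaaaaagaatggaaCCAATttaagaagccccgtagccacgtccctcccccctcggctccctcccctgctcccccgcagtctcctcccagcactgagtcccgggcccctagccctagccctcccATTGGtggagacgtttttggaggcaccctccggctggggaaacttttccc
Col3a1, chr1:45311288-45311587, plus strand: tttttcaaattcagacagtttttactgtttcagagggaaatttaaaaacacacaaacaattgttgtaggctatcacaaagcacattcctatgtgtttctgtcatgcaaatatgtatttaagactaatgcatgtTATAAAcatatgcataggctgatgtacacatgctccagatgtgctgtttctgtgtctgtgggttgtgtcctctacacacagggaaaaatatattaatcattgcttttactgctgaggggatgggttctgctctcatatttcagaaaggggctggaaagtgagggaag
Sparc, chr11:55420031-55420330, minus strand: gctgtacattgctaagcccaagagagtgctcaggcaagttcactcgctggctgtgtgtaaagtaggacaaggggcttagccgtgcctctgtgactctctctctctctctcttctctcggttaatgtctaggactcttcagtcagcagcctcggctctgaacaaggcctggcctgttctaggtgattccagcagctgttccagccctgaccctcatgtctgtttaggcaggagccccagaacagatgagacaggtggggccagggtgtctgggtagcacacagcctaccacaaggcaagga
The Bgn window held 3 GC box matches, all on the opposite strand, and the last 2 overlap. The Col1a2 window held 2 GC box matches and 2 CAAT box matches, 1 CAAT box on each strand. The Col3a1 window held 1 TATA box match, on the plus strand. None of the 3 motifs was in the Sparc window. Over all 32851 promoters in the table, 35.7% held the GC box letters, 37.4% the CAAT box letters and 13.6% the TATA box letters, so matches of this kind are common. A match is a description of the letters only.

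Other matrix genes were read through 6 lists holding 134 genes, of which 116 were measured. In infiltrates of B6g7 over NOD, 0 of the 116 passed, against 0.279% of all genes, and the same count was found in the other between-background comparisons and in pancreatic over lymph node T cells. In B6g7 infiltrates over pancreatic T cells 2 rose and 0 fell, against 2.59% and 0.303% of all genes. In NOD 1 rose and 1 fell, against 3.22% and 0.327%. Without the 6 arrays with liver transcripts both pairs of counts were the same, and without the 3 arrays highest in Fabp1 they were 1 rose and 0 fell in B6g7 and 1 rose and 3 fell in NOD. The gene that rose in both was Tgfbi, a secreted TGF-β-induced protein that binds integrins and collagen. It read 5.81 to 7.02 in the 6 infiltrates and 3.61 to 5.04 in the other 18 arrays. Its log2 difference was 2.69 in B6g7 (SE 0.38, adjusted p = 0.000375) and 2.31 in NOD (adjusted p = 0.000467). The B6g7 call held under all 14 alternatives run for it, and the NOD call under 14 of 15, all but the fit to the compared groups alone (adjusted p = 0.124).

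By role, 0 of the 23 other collagens passed in infiltrates over pancreatic T cells on either background. Tgfbi was the 1 of 31 other matrix proteins that did. Of the 11 collagen-processing genes 1 fell in NOD, namely Bmp1, the procollagen C-proteinase, which differed by -0.67 in NOD (adjusted p = 0.00340, and 0.354 with only the compared groups fitted). Of the 18 matrix proteases and inhibitors 0 passed in these contrasts. The gelatinase Mmp9, at 1.92 in NOD, had the smallest p of them there (adjusted p = 0.0536). Of the 16 matrix receptors, Itgb1, the integrin β1 chain of the fibronectin and collagen receptors, rose in B6g7 by 1.56 (adjusted p = 0.0152). That call was lost under 8 of 15 alternatives, with adjusted p-values up to 0.268. Of the 17 genes of the TGF-β axis, 2 fell and 0 rose in infiltrates over spleen in B6g7, and 2 fell and 1 rose in NOD. Those that fell were Tgfb1, by 2.45 log2 units in B6g7 and by 1.95 in NOD, and Tgif1, a transcriptional repressor of TGF-β signalling, by 1.43 in B6g7 and by 0.71 in NOD. Tgfb2 rose by 1.18 in NOD (adjusted p = 0.0499). The Tgfb1 calls and the B6g7 call of Tgif1 held under every alternative run for them, while the NOD call of Tgif1 was lost under 5 of 15 and that of Tgfb2 under 9 of 14, with adjusted p-values up to 0.249 and 0.299. Tgfbi, 1 of the 31 other matrix proteins, rose over spleen by 2.26 in B6g7 and 2.39 in NOD, and these calls also held under every alternative run. Spleen and infiltrate differ in rounds of amplification, and in whether titles name BDC2.5, here too. Against spleen, 3 of the 116 rose and 2 fell in B6g7, where 3.44% and 4.08% of all genes did, and 4 rose and 2 fell in NOD, where 3.99% and 4.68% did. In NK cells over lymph node T cells 5 rose and 3 fell, against 7.03% and 10.2% of all genes. Without the 6 arrays with liver transcripts 4 rose and 1 fell there. Among those that rose were Mmp9, by 1.44 (adjusted p = 0.0309), and the macrophage elastase Mmp12, by 0.85 (adjusted p = 0.0133). The Mmp9 call was lost under 9 of 18 alternatives, with adjusted p-values up to 0.208, and the Mmp12 call under 3 of 17, with values up to 0.0706. The 3′ minus 5′ Gapdh level was 4.32 to 5.27 in NK cells and 2.83 to 3.84 in lymph node T cells, and its part in these differences was not tested. Macrophage markers rose there too, for example Csf1r by 3.11 (adjusted p = 5.16e-06).

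Markers of the cells that make interstitial matrix did not stand apart in the infiltrates. The mean over 24 mesenchymal markers was 4.94 to 5.03 in the 6 infiltrates and 4.65 to 5.16 over all arrays, highest in NOD pancreatic T cell array 1. No marker read 0, since every deposited intensity was 5.70 or above. Pdgfrb, the platelet-derived growth factor receptor of pericytes and fibroblasts, read 3.52 to 3.77 in infiltrates and 3.50 to 4.03 in the other arrays. In infiltrates over pancreatic T cells, 1 of 24 mesenchymal markers rose on each background, against 2.59% of all genes in B6g7 and 3.22% in NOD. It was S100a4, which leukocytes also express, at 1.51 in B6g7 (adjusted p = 0.0118) and 1.24 in NOD (adjusted p = 0.0195). Without the arrays with liver transcripts neither call held (adjusted p = 0.632 and 0.0693). Of 13 endothelial markers, Icam2, which leukocytes also carry, rose in NOD by 1.73 (adjusted p = 0.0178) and 0 passed in B6g7, read against the same shares. Without the arrays with liver transcripts 0 of 13 passed in NOD. The mean over 6 mesothelial markers was 5.43 in NOD pancreatic T cell array 1 and 4.63 to 5.20 in the other 23 arrays. Means over 5 platelet markers, 5.06 to 5.62, and over 14 acinar and islet markers, 5.31 to 6.67, covered all arrays, and the acinar and islet mean was highest in B6g7 pancreatic T cell array 1.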

How the data were processed

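Probe set intensities were used as deposited, on a linear scale, in 1 table with 1 column per array; per the submitters' processing notes RMA (robust multi-array average) made 11 of the 24 columns, and the method is not named for the other 13. The 11 include all B6g7 infiltrates and no NOD infiltrate. How the rest of the 11 divide between backgrounds is not given here. Processing may therefore differ between B6g7 and NOD in the other populations too. The smallest intensity was 5.70, so log2 was taken with no pseudocount. The number of arrays limits the precision.

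Of 12488 probe sets, 66 controls were left out. The platform annotation, updated through Entrez identifiers to RefSeq (GRCm38.p6), gave 10833 probe sets 1 gene, 396 several and 1193 none. In lists, the probe set with the highest mean stood for its gene. No level was set against that of another probe set.

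Group means of all 24 arrays were fitted with limma 3.58.1 in R 4.3.3 (14 residual degrees of freedom), and every adjusted p is two-sided, by Benjamini-Hochberg over 12422 probe sets. On simulated data for NOD infiltrate over pancreatic T cells, 59.0% of changes of 1 log2 unit and 90.0% of changes of 2 were recovered, with 8 false calls. These shares are not specific to the members. They need not hold for Fn1 and Dcn, whose SDs exceeded those of 97.3% and 95.9% of probe sets. Variance shares, array sets and motifs were computed in Python 3.11.15.

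All member probe sets were named. For each member the 3 most correlated other genes were named, and from each list up to 3 genes per comparison that passed, by size, or the smallest p. The members and lists were chosen with earlier results of these data known.

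Same-numbered NOD pancreatic and lymph node T cell arrays deviated from their group means with r = 0.34, 0.36 and 0.29 over all probe sets. The numbers were taken to pair them, although the ages of number 2 differ. Same-numbered arrays of B6g7 and NOD, which cannot be pairs, gave r from -0.04 to 0.65, so the NOD values do not show pairing. In B6g7 pancreatic and lymph node T cells, with 2 arrays each, r was 0.79 for both numbers, the same value by construction. Those arrays share age and serial run by number, so run and pairing cannot be told apart there. The main fit does not pair arrays. With the replicate block, Fn1 in NOD pancreatic over lymph node T cells differed by 1.43 (adjusted p = 0.222) and no member passed. Alternatives were array weights, quantile normalization, median centring, a trended robust prior, testing without the dimmest 40% of probe sets, only the compared groups, the replicate block, the serial run block, a liver covariate, and leaving out each array or the 3 arrays highest in Fabp1. Leaving out all 6 arrays with liver transcripts, the F test and the array-set counts were added after seeing the data.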

Additional observations from a re-analysis of the deposited data

Results flagged for a closer look

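Bgn 96049_at, B6g7 minus NOD, was -0.91 log2 units in pancreatic T cells and 0.07 in NK cells, so the contrast was lower by 0.98 in T cells, a difference of -0.98. Pancreatic T cell arrays read 5.39 and 5.59 in B6g7 and 7.20, 6.31 and 5.67 in NOD. NK arrays read 5.98 each in B6g7 and 5.96 and 5.86 in NOD. For the other Bgn probe set, 162347_f_at, B6g7 minus NOD was -0.02 in pancreatic T cells and 0.01 in NK cells. The difference between the populations was not tested. Processing may differ between the backgrounds here, since RMA is not named for all arrays.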

How the results depend on the processing

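The count of 0 of 12 probe sets called stayed at 0 in most settings, and no difference that passed the test changed sign. It became 1 under the liver covariate in infiltrate over pancreatic T cells for B6g7 (Dcn, -1.001, adjusted p = 0.0435) and for NOD (Fn1, 2.29, adjusted p = 0.0113). It became 1, by Fn1, in NOD infiltrate over pancreatic T cells and over spleen without the 3 arrays highest in Fabp1 and without all 6 arrays with liver transcripts. Over spleen it also became 1, by Fn1, under the liver covariate in NOD (2.36, adjusted p = 0.00436), and with only the compared groups in B6g7 (1.11, adjusted p = 0.0422) and NOD (2.34, adjusted p = 0.00496). Array weights gave 2 in NOD infiltrate over spleen (Fn1 2.49, Col3a1 102990_at 0.29) and 2 in NK over lymph node T cells (Col1a1 103709_at 0.38, Col1a2 101130_at 0.36). With the replicate block it was 1 in pancreatic T cells, B6g7 over NOD (Bgn 96049_at, -1.27, adjusted p = 0.0264). Same-numbered arrays of the 2 backgrounds cannot be pairs, so the block has no basis there. Its difference is the same as that without NOD pancreatic T cell array 3, so these settings are not separate support. The block changed no other member call. Leaving out 1 array of the compared groups gave 0 to 1 in NOD infiltrate over pancreatic T cells, in NOD pancreatic over lymph node T cells and in pancreatic T cells of B6g7 over NOD, each 1 being Bgn 96049_at without NOD pancreatic T cell array 3. Where this left a single array in a group, its spread was taken to equal that of the other groups. Fn1 crossed 0 in such fits without being called, for example from -0.34 to 2.31 in B6g7 infiltrate over pancreatic T cells. The member counts above are not set beside the share of all probe sets called under the same setting. They therefore do not show whether the members stood out. Over all probe sets, counts moved by over 1.5 times in 12 of 13 comparisons. Against 34 called in infiltrates of B6g7 over NOD, alternatives gave 6 to 302. For infiltrate over pancreatic T cells they gave 84 to 421 in B6g7 (337 as reported) and 86 to 847 in NOD (401). For infiltrate over spleen they gave 324 to 4283 in B6g7 (942) and 351 to 3027 in NOD (1133). For NOD pancreatic over lymph node T cells the range was 0 to 1849 (2 as reported). Of B6g7 over NOD it was 0 to 307 in pancreatic T cells (18), 0 to 24 in lymph node T cells (16), 2 to 66 in spleen (9) and 0 to 67 in NK cells (6). NK over lymph node T cells gave 1134 to 3442 (1882), and the interaction 0 to 10 (2). Why these counts moved was not tested. Leaving out the 40% dimmest probe sets removed 5 of the 12, so those have no value there.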
